A study of Mus musculus with 24 samples.

Results

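The genes described are 31 neuropeptide genes of the mouse brain. They comprise 19 peptide precursors, 7 granins and granin-like proteins, 4 processing enzymes and the binding protein Crhbp. They were chosen by name from a fixed list, and all 31 were found by Ensembl ID among the 37621 features counted in every library. Polyadenylated RNA had been sequenced from 4 dissected brain regions of Cdr1as-knockout (KO) and wild-type (WT) C57BL/6 mice. There were 3 libraries in each of 8 groups, which are KO and WT olfactory bulb, KO and WT cerebellum, KO and WT hippocampus, and KO and WT cortex. No treatment is named in the labels, and the labels give neither the age nor the sex of the mice, nor say that the 3 libraries of a group come from separate animals, so the error given here may be partly technical.

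Neuropeptides are made as longer precursors that enter the regulated secretory pathway and are packed into dense-core vesicles. Prohormone convertases (Pcsk1, Pcsk2) cut the precursor at pairs of basic residues, carboxypeptidase E (Cpe) trims the exposed basic residues, and peptidylglycine alpha-amidating monooxygenase (Pam) amidates the end. Granins such as Chga, Chgb and Scg2 are abundant vesicle cargo, Scg5 (7B2) is the chaperone of Pcsk2, and Pcsk1n (proSAAS) is an inhibitor of Pcsk1. In the forebrain many precursors mark classes of inhibitory neurons, Sst, Vip, Npy and Cck among them, while several granins and Cpe are made by most neurons. Cdr1as is a circular RNA with many binding sites for the microRNA miR-7, and transcription of several peptide genes is known to respond to cAMP and neuronal activity.

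Promoter elements and miR-7 sites of these genes are shown first, because several peptide genes respond to cAMP and because miR-7 binds Cdr1as. The RefSeq promoter table (GRCm38.p6, 250 bases before to 50 after the start) held a window for 25 of the 31 genes, and none for Penk, Crh, Grp, Pnoc, Vgf and Cpe. The full cAMP response element TGACGTCA, searched on both strands, was present in 5 of these 25 genes (20%), against 2.03% of the 27025 genes with a window. The shorter core TGACG, which the full element contains, was present in 17 of the 25 (68%) on either strand, against 23% of all genes. The sequence TATAAA on the forward strand was present in 6 of the 25 (24%), against 9.77% of all genes. The 5 windows with the full element are printed as 80 bases read 5′ to 3′ on the gene's strand, with the element in capitals. Its first base lies 68 bases before the start in Scg2, 72 in Chgb, 78 in Pcsk1, 112 in Cartpt and 48 in Sst.
Scg2 (chr1:79440051-79440130, minus strand): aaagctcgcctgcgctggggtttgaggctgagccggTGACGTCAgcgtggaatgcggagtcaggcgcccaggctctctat
Chgb (chr2:132781534-132781613, plus strand): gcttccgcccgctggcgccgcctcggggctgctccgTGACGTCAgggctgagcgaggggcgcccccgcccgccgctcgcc
Pcsk1 (chr13:75089743-75089822, plus strand): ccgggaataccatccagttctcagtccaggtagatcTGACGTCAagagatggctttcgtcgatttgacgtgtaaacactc
Cartpt (chr13:99900752-99900831, minus strand): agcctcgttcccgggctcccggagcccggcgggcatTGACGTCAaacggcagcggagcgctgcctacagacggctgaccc
Sst (chr16:23890849-23890928, minus strand): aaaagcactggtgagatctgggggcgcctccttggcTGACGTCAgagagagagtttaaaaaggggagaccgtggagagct
These matches are a description of the letters in the windows, and binding was not measured.

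The 2 mature miR-7 sequences of the RefSeq table share the seed at bases 2 to 8, given in capitals.
mmu-miR-7a-5p: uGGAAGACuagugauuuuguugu
mmu-miR-7b-5p: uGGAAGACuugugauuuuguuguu
The matching site GTCTTCC was searched in the longest annotated 3′ UTR of each gene (GENCODE M21), and 3 of the 31 genes (9.68%) held it, against 11.9% of the 21027 genes with a 3′ UTR. An 8-base site ending in A was held by 1 of the 31 (3.23%), against 3.53% of all. The 3′ UTRs of the peptide genes were short, with a median of 512 bases against 960 bases over all genes, and held 0.138 sites per kilobase against 0.0932. The sites, with flanks and with the matching bases in capitals, are these.
Pcsk1n: tgagttttcaactttGTCTTCCttttggaa
Pcsk1: agtgtttaagagtatGTCTTCCctgtctat
Crhbp: ggcagcaaatggaaaGTCTTCCAatcagta
The share with a site was thus close to the share over all genes, and the knockout values of these 3 genes are given further on.

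Depth was 21068566 to 40472007 gene counts per library, and the 31 genes held 0.277% to 0.642% of them. Levels are in CPM, the count of a gene relative to the library total, scaled by the edgeR TMM method over all libraries. The feature counted for the Cdr1as locus had 0.115 to 1.94 CPM in the KO libraries and 2.24 to 29.2 CPM in the WT libraries, with all KO libraries below all WT libraries of their region. A circular RNA has no poly(A) tail, so these counts need not follow the circle itself. Several libraries stood apart in markers of neighbouring tissue. The 8 hypothalamus markers, among them the peptide genes Hcrt, Pmch, Avp and Oxt, summed to 2.42, 6.07 and 8.18 CPM in KO cortex, against 65.4, 7.72 and 61.6 CPM in WT cortex. Of these markers Hcrt stood at 0.119, 0.0366 and 0.0702 CPM in KO cortex, against 6.29, 0.0711 and 6.93 CPM in WT cortex, so WT cortex libraries 1 and 3 differ from the other cortex libraries. In the cerebellum, KO library 1 and WT library 1 had thalamus marker sums of 165 and 205 CPM, and the other KO and WT libraries 90.5 to 98.3 CPM. Hippocampus KO library 2 had a thalamus marker sum of 162 CPM, against 72.7 to 90.1 CPM in the other hippocampus libraries. Choroid plexus markers exceeded 1000 CPM in 5 libraries, which were cerebellum KO 2, cerebellum WT 1 and 2, and hippocampus WT 1 and 3. The 9 striatum markers summed to 557 to 959 CPM in KO cortex and 539 to 977 CPM in WT cortex, against at most 188 CPM in any library of the other regions. In such bulk tissue, fewer cells of a type and less RNA per cell cannot be told apart.

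**Figure D1:**
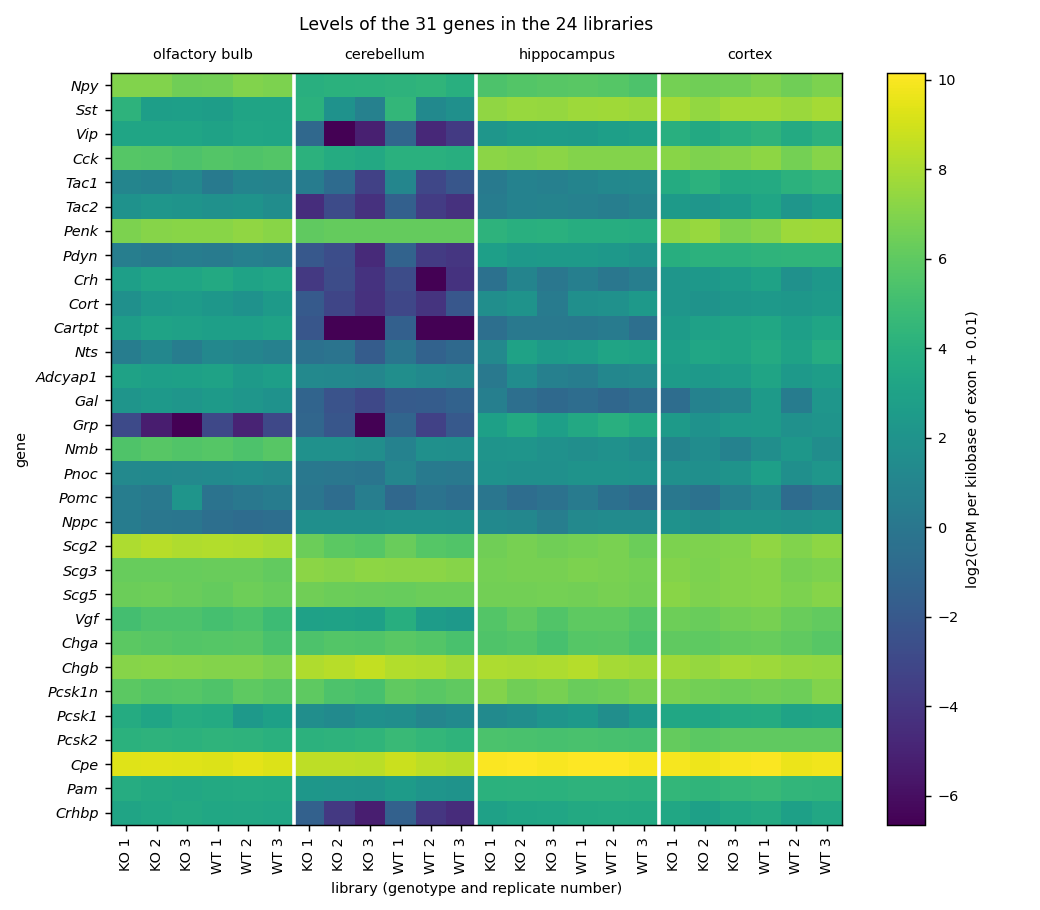
Levels of the 31 genes (rows) in the 24 libraries (columns, grouped by region with KO left of WT), as log2 of CPM per kilobase of exon plus 0.01. Cpe is the brightest row in every region, the cerebellum is dark for Vip, Cartpt, Crh, Cort and Crhbp, and Grp is dark in the olfactory bulb and cerebellum.

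The regions differed first in which peptide genes led. Per kilobase of exon, the scale on which genes can be compared, Cpe was the highest of the 31 genes in every WT region. Its level was 636 ± 52.9 CPM per kb in WT olfactory bulb, 376 ± 66.0 in WT cerebellum, 1079 ± 85.2 in WT hippocampus and 912 ± 115 in WT cortex (SD, n = 3). The genes that followed differed between regions. They were Scg2 (274 ± 25.4 CPM per kb) and Penk (150 ± 10.9) in the olfactory bulb, and Chgb (265 ± 33.2) and Scg3 (143 ± 6.29) in the cerebellum. In the hippocampus they were Chgb (252 ± 46.9) and Sst (205 ± 8.30), and in the cortex Sst (220 ± 22.1) and Chgb (184 ± 18.8), with Penk at the same level (184 ± 39.4). The cortex had the highest mean CPM of 21 of the 31 genes, the olfactory bulb of 5, the hippocampus of 3 and the cerebellum of 2. Only 8 of these leads were larger than the spread between libraries: by the edgeR quasi-likelihood test with Benjamini-Hochberg adjustment, the top region was above the second for 4 genes in the cortex, 2 in the bulb, 1 in the hippocampus and 1 in the cerebellum. The cerebellum was lowest for 20 genes, the bulb for 9 and the hippocampus for 2. No share over all genes stands beside these counts of highest and lowest regions. They are therefore not read as particular to the 31 genes.

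The cerebellum was the region poorest in peptide precursors. Against the cortex, 2 of the 31 genes were higher and 25 lower at an adjusted p under 0.05, where 26.5% and 27.3% of 16729 genes were higher and lower. The members lower in the cerebellum were 16 of 19 precursors, 4 of 7 granins, all 4 enzymes and Crhbp, and the median difference over the 31 genes was -2.25 in log2 units, against 0.02 over all genes. Against the hippocampus, 3 were higher (24.3% of all genes) and 21 lower (24.7% of all genes), with a median of -1.47. The genes higher in the cerebellum than in the cortex were the granins Chgb, with 792, 767 and 623 CPM in WT cerebellum against 561, 495 and 459 CPM in WT cortex, and Scg3, with 401, 403 and 372 CPM in WT cerebellum against 373, 289 and 308 CPM in WT cortex. The Chgb libraries did not overlap (log2 0.52, SE 0.15, adjusted p = 0.0108), while the Scg3 libraries overlapped, with cortex library 1 at the lowest cerebellum level (log2 0.28, SE 0.11, adjusted p = 0.0475).

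Penk, the precursor of the enkephalins, was the precursor with the highest CPM in the cerebellum. It had 236, 266 and 234 CPM in WT olfactory bulb, 117, 119 and 117 CPM in WT cerebellum, 23.3, 23.3 and 22.1 CPM in WT hippocampus and 227, 332 and 343 CPM in WT cortex. The cerebellum therefore exceeded the hippocampus (log2 2.35, SE 0.14, adjusted p = 5.79e-08) and stayed below bulb and cortex, while bulb and cortex did not pass the test between them (log2 -0.29, 95% interval -0.57 to -0.00, adjusted p = 0.0929). Within each genotype Penk followed the striatum marker sum of the cortex library: the KO cortex libraries with 190, 253 and 305 CPM of Penk had striatum marker sums of 557, 826 and 959 CPM, and the WT cortex libraries with 227, 332 and 343 CPM had 539, 970 and 977 CPM. Tac1, the substance P precursor, followed with 40.2 and 60.3 CPM in the KO cortex libraries lowest and highest in striatum markers, and 42.1 and 73.5 CPM in the corresponding WT libraries. The part of striatal tissue in the cortex levels of both genes was not tested.

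Several precursors were at or near the limit of detection in the cerebellum. With 3 counts as the floor, the limit per cerebellum library is 0.0762 to 0.108 CPM. Cartpt, the precursor of cocaine- and amphetamine-regulated transcript peptides, had no count in 2 of 3 KO and 2 of 3 WT cerebellum libraries, against 8.22 to 11.0 CPM in KO bulb and 8.97 to 10.6 CPM in WT bulb. Crh, corticotropin-releasing hormone, was at most 0.180 CPM in either genotype of the cerebellum, and its WT level was highest in the bulb, with 15.7, 11.0 and 13.0 CPM. Cort (cortistatin), Vip, Tac2 (the neurokinin B precursor), Gal (galanin) and Crhbp, which binds and sequesters Crh, also averaged under 1 CPM in WT cerebellum. Crhbp reached 18.5 ± 0.617 CPM in WT bulb, 21.3 ± 0.711 in WT hippocampus and 18.2 ± 4.45 in WT cortex (SD, n = 3), against 0.268 ± 0.330 in WT cerebellum, and no pair among bulb, hippocampus and cortex passed the test.

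Sst, Vip and Tac1 in the cerebellum were highest in the libraries numbered 1, whereas Npy was not, and Cck was highest in library 1 in KO (23.5, 17.1 and 14.6 CPM) but not in WT (20.6, 20.6 and 19.2 CPM). Sst, somatostatin, had 11.9, 2.70 and 1.18 CPM in KO cerebellum and 15.9, 1.77 and 2.43 CPM in WT cerebellum. Vip, vasoactive intestinal peptide, had 1.68, 0 and 0.0591 CPM in KO and 1.58, 0.0947 and 0.210 CPM in WT. Tac1 had 4.45, 1.98 and 0.296 CPM in KO and 6.99, 0.379 and 0.720 CPM in WT. In these genes the libraries numbered 1, which are the ones rich in the thalamus markers Slc17a6 (61.1 CPM in KO 1 and 89.0 in WT 1, against 21.1 to 24.5 in the others) and Tcf7l2, stood above the rest. The part of neighbouring tissue in these cerebellum levels was not tested.

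Sst and Cck marked hippocampus and cortex. Sst had 4.67, 6.37 and 6.51 CPM in WT olfactory bulb, 149, 153 and 141 CPM in WT hippocampus and 165, 140 and 170 CPM in WT cortex. Bulb libraries lay far below both (log2 -4.65, SE 0.71 against hippocampus, and -4.75, SE 0.71 against cortex), and hippocampus and cortex overlapped. The bulb and cerebellum could not be ordered for Sst (log2 -0.17, 95% interval -1.67 to 1.33), but without cerebellum WT library 1 the bulb was called higher (log2 1.49, adjusted p = 5.45e-05). Cck, cholecystokinin, had 66.2, 59.0 and 66.3 CPM in WT bulb, 20.6, 20.6 and 19.2 CPM in WT cerebellum, 172, 168 and 166 CPM in WT hippocampus and 204, 130 and 177 CPM in WT cortex. The levels of hippocampus and cortex overlapped (log2 -0.01, 95% interval -0.30 to 0.28), and both exceeded bulb and cerebellum.

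The olfactory bulb had its own peptide profile. Against the cerebellum 20 of the 31 genes were higher (23.7% of all genes) and 4 lower (22.7% of all genes), against the hippocampus 10 were higher (19.9%) and 13 lower (20.9%), and against the cortex 2 were higher (21.6%) and 16 lower (22.7%). The 2 genes higher in bulb than in cortex were Nmb and Scg2. Nmb, neuromedin B of the bombesin family, had 41.5, 35.0 and 44.2 CPM in WT bulb, 1.37, 2.68 and 2.64 CPM in WT cerebellum, 2.44, 2.88 and 2.28 CPM in WT hippocampus and 2.54, 3.81 and 2.32 CPM in WT cortex. The bulb therefore stood alone, with log2 differences of 3.80 to 4.17 (SE 0.26 each), and the other regions overlapped. Scg2, secretogranin II, had 741, 710 and 618 CPM in WT bulb, 197, 130 and 120 CPM in WT cerebellum, 248, 268 and 210 CPM in WT hippocampus and 418, 308 and 387 CPM in WT cortex. Its bulb libraries were all above those of the cortex (log2 0.90, SE 0.19, adjusted p = 0.00223). Grp, gastrin-releasing peptide, is the other bombesin-family gene and had the opposite pattern, with 0.167, 0.0334 and 0.170 CPM in WT bulb, 0.648, 0.126 and 0.360 CPM in WT cerebellum, 16.6, 22.3 and 17.4 CPM in WT hippocampus and 8.27, 5.34 and 6.21 CPM in WT cortex. Nppc, the C-type natriuretic peptide precursor, was also lowest in the bulb, at 0.709, 0.634 and 0.681 CPM, against 3.67, 3.82 and 3.60 CPM in WT cerebellum, 2.47, 2.88 and 2.82 CPM in WT hippocampus and 4.31, 3.77 and 4.28 CPM in WT cortex.

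**Figure D2:**
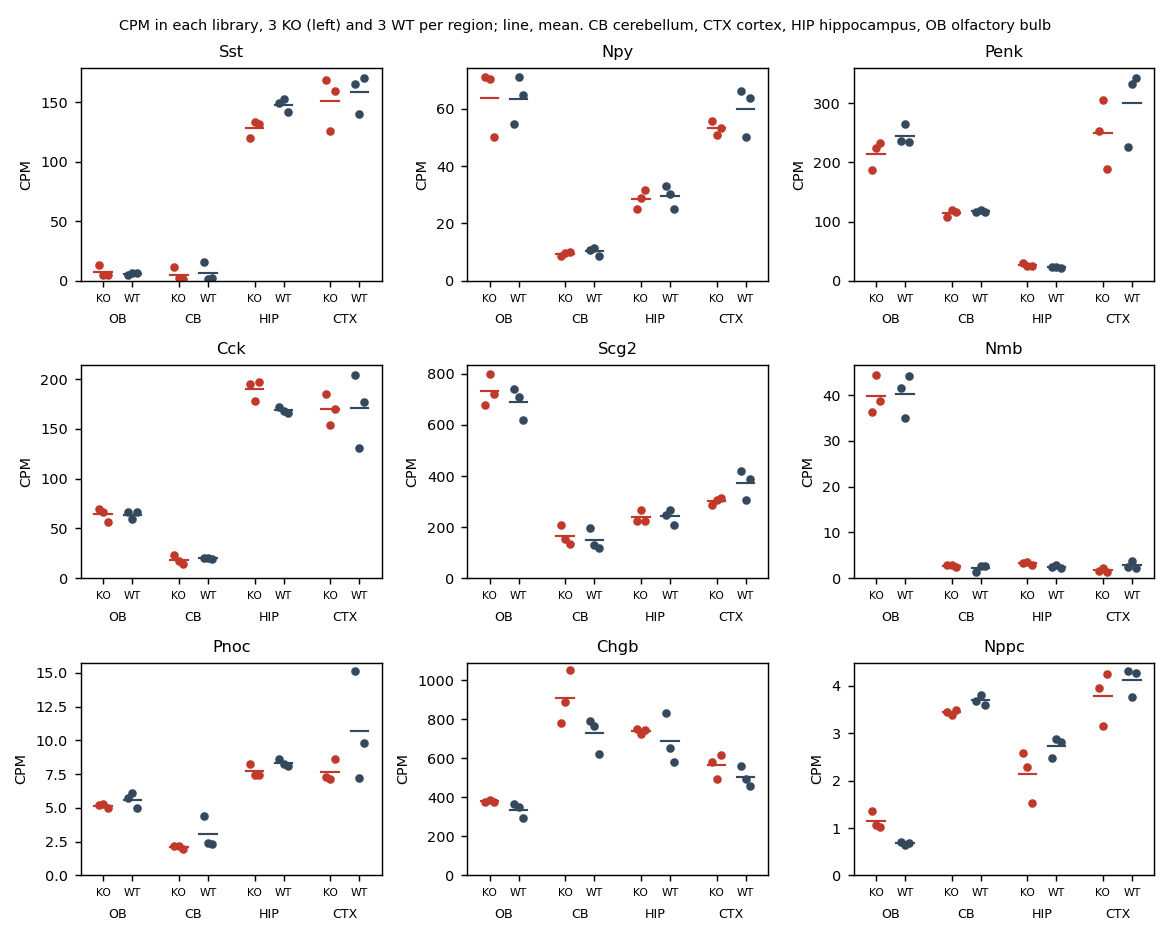
CPM of 9 genes in each library, with 3 KO (red, left) and 3 WT (dark, right) points per region and a line at the mean (OB, olfactory bulb; CB, cerebellum; HIP, hippocampus; CTX, cortex). Nmb is high in the olfactory bulb of both genotypes, Sst and Cck are high in hippocampus and cortex, and KO and WT points overlap in most panels.

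Hippocampus against cortex gave the fewest calls of the 6 pairs of WT regions, with 1 of the 31 genes higher (5.49% of all genes) and 14 lower (8% of all genes) in WT hippocampus than in WT cortex. The gene higher in hippocampus was Grp (log2 1.51, SE 0.34, adjusted p = 0.0108). The lower ones included Penk (log2 -3.71, SE 0.15), Cartpt (-3.16, SE 0.55), Tac1 (-2.99, SE 0.77), Gal (-2.69, SE 0.46) and Pdyn (-2.03, SE 0.36), the dynorphin precursor, which had 16, 14.3 and 11.9 CPM in WT hippocampus against 55.0, 59.0 and 58.6 CPM in WT cortex. The count moved with the WT cortex libraries used: without WT cortex 3 it was 9, without WT cortex 1 it was 10, and without both, the libraries that hold hypothalamus markers, it was 4, namely Penk, Pcsk2, Adcyap1 and Npy. That last fit has 1 cortex library, whose spread is taken from the other groups, and calls over all genes were 1024 there, against 2257 with all libraries. All 15 genes kept their sign in it. Of the 11 that lost the call 8 had a smaller difference, such as Gal (log2 -1.16), while Tac1 (-3.01), Pdyn (-2.06) and Grp (1.82) did not. Fewer libraries and other tissue cannot be told apart as sources of the lost calls. In the KO libraries, with their lower hypothalamus marker sums, 12 of the 15 were called with the same sign, and Gal (log2 -0.69), Grp (0.84) and Scg2 (-0.32) were not. In the KO libraries 21.0% of all genes were called in this pair, and of all genes called in WT 85.1% were called in KO with the same sign. In the other 5 pairs of regions the KO libraries repeated nearly all calls made in WT with the same sign. The numbers were 23 of 24 for bulb against cerebellum (52.4% of all genes called in KO), 22 of 23 for bulb against hippocampus (46.7%), 18 of 18 for bulb against cortex (48.7%), 23 of 24 for cerebellum against hippocampus (57.4%) and 27 of 27 for cerebellum against cortex (59.7%). Over all genes the share of WT calls repeated in these 5 pairs was 87.3% to 91.9%. The order of all 4 regions was the same in KO and WT for 18 of the 31 genes (52.6% of all genes) and the top region for 22 (82.0% of all genes).

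The other precursors varied within these limits. Npy, neuropeptide Y, averaged 63.4 ± 8.15 CPM in WT bulb, 10.3 ± 1.37 in WT cerebellum, 29.5 ± 4.14 in WT hippocampus and 60.0 ± 8.57 in WT cortex (SD, n = 3), and only bulb and cortex did not differ beyond their spread. Adcyap1, the PACAP precursor, was about equally high in bulb (26.0 ± 4.42 CPM) and cortex (26.2 ± 6.64 CPM), and lower in cerebellum (9.63 ± 1.98 CPM) and hippocampus (7.54 ± 2.06 CPM). Nts, neurotensin, averaged 2.44 ± 0.378 CPM in bulb, 0.762 ± 0.351 in cerebellum, 9.79 ± 1.38 in hippocampus and 14.2 ± 3.44 in cortex, and hippocampus and cortex did not pass the test between them. Pnoc, the nociceptin precursor, ranged over the 4 regional means from 3.04 to 10.7 CPM. Pomc, the proopiomelanocortin precursor, stayed between 0.648 and 3.45 CPM in the 12 WT libraries, and no pair of regions passed the test for it.

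Granins and enzymes spanned a smaller range between regions than some precursors. The highest regional mean was 1.34 to 9.74 times the lowest among the 7 granins and 2.87 to 4.74 times among the 4 enzymes, and 13 of the 19 precursors had a ratio above that of every granin (11 without cerebellum WT 1). The 13 include the 10 precursors with too few counts for a ratio to be given below. The 11 include Cartpt, which had 0 counts in its lowest region without that library and so no defined ratio. The smallest ratios were those of Chga (chromogranin A), at 1.34, and Scg5, at 1.66. No ratio is given for the 10 precursors whose lowest region held fewer than 50 counts with or without cerebellum WT 1, such as Crh with 7 counts over the WT cerebellum libraries and Grp with 9 over the WT bulb libraries. Among the other 9 precursors the ratio was 2.10 to 27.1, highest for Sst, whose ratio was 75.5 without cerebellum WT 1. Vgf stood at 14.9 without that library. No pair of regions passed the test for Chga, which averaged 135 ± 21.1 CPM in bulb, 136 ± 25.2 in cerebellum, 138 ± 19.8 in hippocampus and 181 ± 26.3 in cortex. Scg5 had 113, 137 and 119 CPM in WT bulb, 116, 128 and 128 CPM in WT cerebellum, 146, 165 and 149 CPM in WT hippocampus and 219, 177 and 219 CPM in WT cortex, and the cortex was above the hippocampus (log2 -0.41 for hippocampus against cortex, adjusted p = 0.0193), a call lost without WT cortex 1 and 3 (log2 -0.19, adjusted p = 0.586). Vgf, a secreted protein induced by neurotrophins, had the largest ratio of the granins, with 107, 124 and 87.6 CPM in WT bulb, 43.7, 18.5 and 15.4 CPM in WT cerebellum, 183, 190 and 150 CPM in WT hippocampus and 308, 240 and 208 CPM in WT cortex. The convertases differed from one another. Pcsk2 decreased in the order cortex (517 ± 5.53 CPM), hippocampus (307 ± 12.4), cerebellum (180.4 ± 27.9) and bulb (143 ± 13.1), with every neighbouring pair called by the edgeR test. The step from cerebellum to bulb had the largest adjusted p (0.0319), and these WT libraries overlapped (cerebellum minimum 153.0 CPM, bulb maximum 153.6 CPM). In KO, Pcsk2 averaged 148 ± 12.2 CPM in cerebellum and 141 ± 4.31 CPM in bulb. The Pcsk1 levels of WT bulb (46.4 ± 19.0 CPM) and WT cortex (57.0 ± 12.1) did not differ beyond their spread. Pam was 139 ± 3.58 CPM in bulb, 55.7 ± 13.0 in cerebellum, 215 ± 2.40 in hippocampus and 264 ± 34.1 in cortex.

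The loss of Cdr1as was examined next, by the comparison of KO with WT libraries. No gene of the 31 passed an adjusted p of 0.05 between KO and WT in any region, by the edgeR quasi-likelihood test. The counts were 0 of 30 tested in the olfactory bulb (0.00% of 16131 genes called), 0 of 24 in the cerebellum (0.00% of 15723), 0 of 31 in the hippocampus (0.00% of 15572) and 0 of 31 in the cortex (0.0379% of 15834). Grp in the bulb and Vip, Tac2, Crh, Cort, Cartpt, Gal and Crhbp in the cerebellum were too low to be tested. In the KO effect averaged over the 4 regions, 0 of 31 were called, where 1.81% of 17266 genes were higher and 0.863% lower, and the test of a KO effect that differs between regions called 0 of 31 (0.0232% of 17266 genes). DESeq2 also called 0 in each of these comparisons, with no adjusted p for 2 of the genes in the bulb, 7 in the cerebellum, 1 in the mean and 1 in the interaction.

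At an unadjusted p under 0.05 there were 1 gene in the bulb (5.33% of all genes tested), 0 in the cerebellum (5.48%), 5 in the hippocampus (5.16%), 3 in the cortex (4.20%), 2 in the mean over regions (14%) and 2 in the test of the difference between regions (2.54%). The bulb had 3 genes with no overlap between KO and WT libraries (9.97% of all genes), the cerebellum 2 (11.2%), the hippocampus 7 (10.2%) and the cortex 2 (9.28%). The shares without overlap in bulb, cerebellum and cortex are near those of all genes, while that of the hippocampus, 7 of 31, is larger. At an unadjusted p under 0.05 the share of the members tested was 3.33% in the bulb and 0% in the cerebellum. It was 16.1% in the hippocampus, 9.68% in the cortex and 6.45% in the mean, with none called after adjustment. The 13 immediate-early genes, by contrast, were higher in the same KO libraries, with 12 called in the mean over regions and a median log2 of 1.17.

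**Figure D3:**
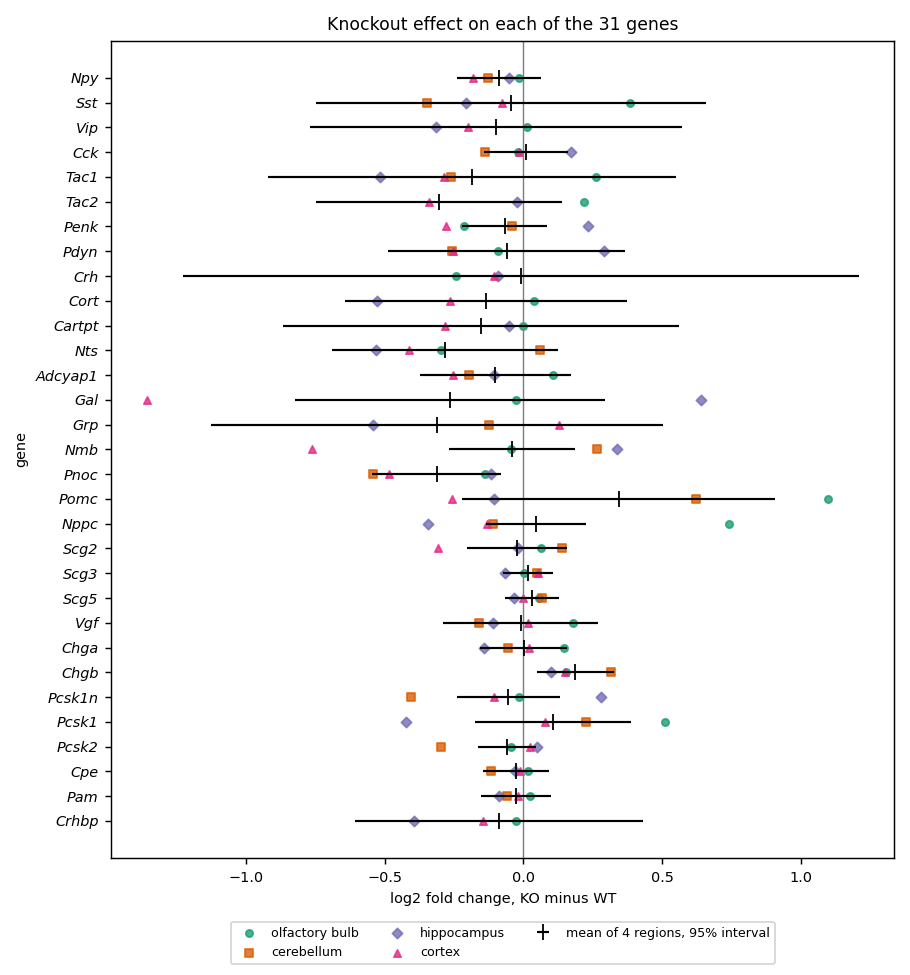
KO minus WT log2 fold change of each gene (rows) in each region (coloured symbols) and averaged over the 4 regions (black bar with its 95% interval). Only Pnoc and Chgb have an interval of the mean that leaves out 0, and neither passed the adjusted p of 0.05.

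The size of an effect that could have been missed depended on the level of the gene. In the mean over regions the 95% interval of 19 of the 31 genes lay within a 1.5-fold change in either direction, and that of 29 within a 2-fold change. The genes outside a 2-fold change were Crh (log2 -0.01, interval -1.23 to 1.21) and Grp (log2 -0.31, interval -1.13 to 0.50). For genes with few cerebellum counts the mean itself moved past 2-fold with the libraries used: without cerebellum KO 1 it was -1.33 for Cartpt and -1.13 for Vip, against -0.15 and -0.10 with all libraries, and without the 5 libraries rich in choroid plexus markers it was 1.15 for Cartpt. The interval of those 2 genes with all libraries is therefore no bound that holds for each choice of libraries. Within single regions, an interval inside 1.5-fold was found for 22 of 30 genes of the bulb, 10 of 24 of the cerebellum, 15 of 31 of the hippocampus and 16 of 31 of the cortex. Highly expressed granins and enzymes were measured tightly, such as Scg3 (log2 0.02, interval -0.07 to 0.11), Scg5 (0.03, -0.07 to 0.13), Cpe (-0.03, -0.15 to 0.09) and Pam (-0.03, -0.15 to 0.10) in the mean over regions. For those genes a KO effect of 1.5-fold in either direction lies outside the interval. The fit of the mean treated all 24 libraries as independent. The labels do not say whether equal numbers across regions share an animal. With libraries of 1 genotype and number correlated (limma-voom), 108 genes were called over all genes, against 462 in the main fit. The intervals of the mean may therefore be too narrow.

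**Figure D4:**
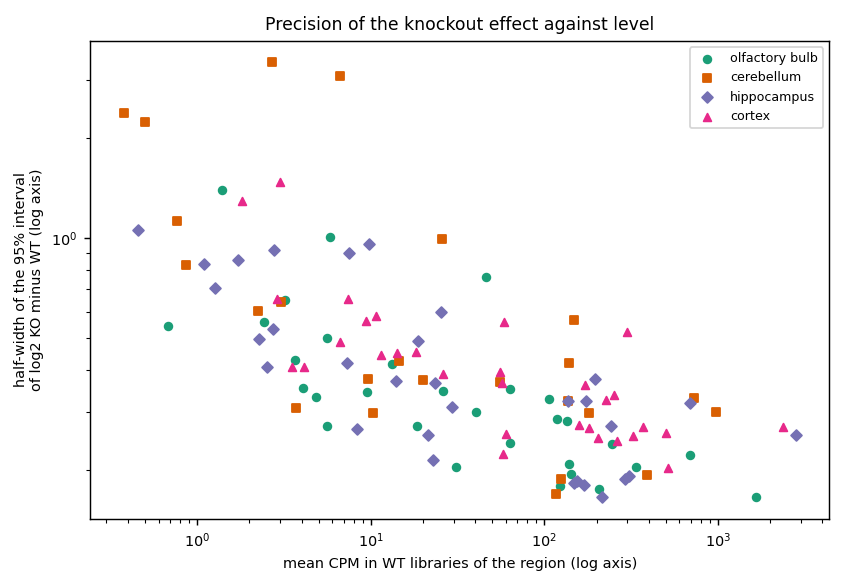
Precision of the KO effect against level, where each point is a gene in a region, the x axis is its mean CPM in WT (log axis) and the y axis is the distance from the estimate to the limit of its 95% interval in log2 units (log axis). Intervals narrow as the level rises, and the widest belong to Tac1 and Sst in the cerebellum.

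Pnoc had the smallest p in the mean over regions together with Chgb. Pnoc had 5.19, 5.30 and 5.02 CPM in KO bulb against 5.72, 6.07 and 5.02 CPM in WT bulb, and 2.21, 2.16 and 1.92 CPM in KO cerebellum against 4.39, 2.43 and 2.31 CPM in WT cerebellum. In the hippocampus it had 8.27, 7.41 and 7.44 CPM in KO against 8.62, 8.29 and 8.14 CPM in WT, and in the cortex 7.28, 7.17 and 8.64 CPM in KO against 15.1, 7.22 and 9.84 CPM in WT. The KO mean was the lower one in all 4 regions, and the 2 highest libraries relative to their group were cerebellum WT 1 and cortex WT 1, which also stand apart in tissue markers. The mean difference was -0.31 in log2 units (SE 0.11, 95% interval -0.55 to -0.08, adjusted p = 0.169). It was -0.17 without cortex WT 1 and 3, -0.22 without cerebellum WT 1 and -0.22 without the 5 libraries rich in choroid plexus markers, and the adjusted p ranged from 0.0547 to 0.769 over the alternatives.

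Chgb, chromogranin B, which carries the full cAMP response element shown above, leaned the other way. It had 378, 387 and 376 CPM in KO bulb against 364, 350 and 296 CPM in WT bulb, where the groups did not overlap, and 779, 890 and 1053 CPM in KO cerebellum against 792, 767 and 623 CPM in WT cerebellum. In the hippocampus it had 749, 723 and 743 CPM in KO against 832, 653 and 583 CPM in WT, and in the cortex 583, 493 and 618 CPM in KO against 561, 495 and 459 CPM in WT. The KO mean was the higher one in all 4 regions, with a mean difference of 0.19 (SE 0.07, 95% interval 0.05 to 0.33, adjusted p = 0.169), and the adjusted p ranged from 0.0545 to 0.476 over the alternatives. The other genes with the full element had mean differences of both signs, and all their intervals included 0. The values over the regions were -0.02 for Scg2 (interval -0.20 to 0.16), 0.11 for Pcsk1 (-0.17 to 0.39), -0.15 for Cartpt (-0.87 to 0.56) and -0.04 for Sst (-0.75 to 0.66).

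The next genes in the mean over regions were Nts, Tac2, Pomc and Npy, and all had intervals that included 0. Nts had 1.69, 2.66 and 1.69 CPM in KO bulb against 2.80, 2.47 and 2.04 CPM in WT bulb, and 0.965, 1.08 and 0.355 CPM in KO cerebellum against 1.15, 0.473 and 0.660 CPM in WT cerebellum. It had 2.98, 10.1 and 7.17 CPM in KO hippocampus against 8.27, 11.0 and 10.1 CPM in WT hippocampus, and 9.07, 12.2 and 10.9 CPM in KO cortex against 15.4, 10.3 and 16.9 CPM in WT cortex. Hippocampus KO 1 was the lowest and cortex WT 1 and 3 were the highest of their regions, and the mean difference was -0.28 (interval -0.69 to 0.12). Tac2 had 5.27, 6.20 and 5.70 CPM in KO bulb against 4.92, 5.50 and 4.09 CPM in WT bulb, and 0.0508, 0.180 and 0.0591 CPM in KO cerebellum against 0.468, 0.0947 and 0.0600 CPM in WT cerebellum. In the hippocampus it had 1.78, 2.44 and 2.48 CPM in KO against 2.30, 1.98 and 2.55 CPM in WT, and in the cortex 7.78, 6.18 and 8.43 CPM in KO against 12.6, 6.26 and 9.37 CPM in WT. Its groups overlapped in every region, and its mean difference of -0.30 (interval -0.75 to 0.14) was 0.03 without cerebellum WT 1.

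Pomc had 1.79, 1.47 and 5.75 CPM in KO bulb against 1.09, 1.37 and 1.70 CPM in WT bulb, and 1.24, 0.828 and 1.92 CPM in KO cerebellum against 0.648, 1.07 and 0.870 CPM in WT cerebellum. In the hippocampus it had 1.25, 0.823 and 1.04 CPM in KO against 1.62, 0.934 and 0.716 CPM in WT, and in the cortex 1.37, 1.02 and 2.07 CPM in KO against 3.45, 0.783 and 1.22 CPM in WT. Bulb KO 3 stood above all other libraries, and the mean difference of 0.34 (interval -0.22 to 0.91) was 0.12 without it. Npy had 71.0, 70.3 and 50.2 CPM in KO bulb against 54.7, 70.9 and 64.7 CPM in WT bulb, and 8.76, 9.64 and 9.97 CPM in KO cerebellum against 10.6, 11.5 and 8.79 CPM in WT cerebellum. It had 25.0, 28.9 and 31.6 CPM in KO hippocampus against 33.1, 30.4 and 25.0 CPM in WT hippocampus, and 55.7, 50.9 and 53.2 CPM in KO cortex against 66.1, 50.2 and 63.7 CPM in WT cortex. The groups overlapped in every region for Npy, and its mean difference was -0.09 (interval -0.24 to 0.07).

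The differences of the genes with the highest levels per kilobase were small in most regions. Cpe, the highest of all, had 1697, 1767 and 1659 CPM in KO bulb against 1602, 1817 and 1560 CPM in WT bulb, and 927, 906 and 899 CPM in KO cerebellum against 1176, 923 and 847 CPM in WT cerebellum. In the hippocampus it had 2746, 2942 and 2583 CPM in KO against 2946, 2939 and 2558 CPM in WT, and in the cortex 2494, 2147 and 2489 CPM in KO against 2702, 2107 and 2329 CPM in WT. The groups overlapped in every region, with log2 differences of 0.02, -0.12, -0.03 and -0.01 in that order of regions. Scg3, which sorts granins into secretory granules, had 209, 210.1 and 211 CPM in KO bulb against 213, 219.7 and 186 CPM in WT bulb, and 415, 378 and 430.2 CPM in KO cerebellum against 401, 403 and 372 CPM in WT cerebellum. It had 275, 281 and 279 CPM in KO hippocampus against 308, 294 and 272 CPM in WT hippocampus, and 351, 312 and 350.1 CPM in KO cortex against 373, 289 and 308 CPM in WT cortex. These groups overlapped as well, and the log2 differences were between -0.07 and 0.05. Scg2 had 678, 799.8 and 722 CPM in KO bulb against 741, 709.6 and 618 CPM in WT bulb, and its difference there was 0.06 (interval -0.16 to 0.29).

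In the olfactory bulb the gene with the smallest p was Nppc, with 1.37, 1.06 and 1.02 CPM in KO against 0.709, 0.634 and 0.681 CPM in WT. All KO libraries were above all WT libraries (log2 0.74, interval 0.20 to 1.29, unadjusted p = 0.0151, adjusted p = 0.834). The cerebellum had the opposite order, with 3.45, 3.38 and 3.49 CPM in KO against 3.67, 3.82 and 3.60 CPM in WT, although the fitted difference there was only -0.11 (interval -0.42 to 0.20). The test that the Nppc effect differs between regions gave an unadjusted p of 0.00280 and an adjusted p of 0.885. Penk was second in the bulb, with 187, 224 and 232 CPM in KO against 236, 266 and 234 CPM in WT (log2 -0.22, interval -0.46 to 0.03). Neither passed the test in the bulb.

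In the cerebellum the smallest p belonged to the Pcsk2 and Pcsk1n pair. Pcsk2 had 137, 145 and 161 CPM in KO against 209, 179 and 153 CPM in WT (log2 -0.30, interval -0.59 to 0.00, adjusted p = 0.911), and its highest WT library is the one numbered 1. Without both libraries numbered 1 the difference was -0.11. Pcsk1n, one of the genes with a miR-7 site, had 137, 96.8 and 83.9 CPM in KO against 147, 124 and 146 CPM in WT (log2 -0.40, interval -0.83 to 0.02, adjusted p = 0.926). In the other regions Pcsk1n was 132, 110 and 116 CPM in KO bulb against 101, 135 and 121 CPM in WT bulb, 287, 195 and 227 CPM in KO hippocampus against 174, 187 and 224 CPM in WT hippocampus, and 243, 203 and 187 CPM in KO cortex against 210, 194 and 273 CPM in WT cortex. These groups overlapped, with log2 differences of -0.02, 0.28 and -0.11. Pcsk1, another gene with a site, had log2 differences of 0.51 (bulb), 0.23 (cerebellum), -0.42 (hippocampus) and 0.08 (cortex), each with an interval that included 0.

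In the hippocampus the smallest p belonged to Crhbp, the gene with the 8-base miR-7 site. It had 14.1, 16.6 and 17.9 CPM in KO against 21.2, 22 and 20.6 CPM in WT, so all KO libraries were below all WT libraries (log2 -0.39, SE 0.11, interval -0.65 to -0.14, unadjusted p = 0.00780, adjusted p = 0.954; DESeq2 adjusted p = 0.501). In the bulb it had 15.9, 18.6 and 20.8 CPM in KO against 18.6, 19.0 and 17.8 CPM in WT, and in the cortex 18, 13.3 and 18.4 CPM in KO against 22.1, 13.4 and 19.2 CPM in WT, with overlapping groups and log2 differences of -0.03 and -0.15. Tac1 had 4.05, 6.00 and 5.28 CPM in KO hippocampus against 6.39, 7.69 and 7.92 CPM in WT hippocampus, again without overlap (log2 -0.52, interval -0.94 to -0.10, adjusted p = 0.954). The other hippocampal genes without overlap were Sst, with 120, 133 and 132 CPM in KO against 149, 153 and 141 CPM in WT (log2 -0.21), and Pam (-0.09), both lower in KO, and Penk (0.23), Cck (0.17) and Nmb (0.34), which were higher in KO. Penk had 29.7, 25.4 and 25.8 CPM in KO against 23.3, 23.3 and 22.1 CPM in WT there. Grp was lower in KO hippocampus by the same edgeR test (log2 -0.54, interval -1.03 to -0.05, unadjusted p = 0.0348, adjusted p = 0.956), but its KO and WT libraries overlapped. The hippocampal WT libraries 1 and 3 differed from the KO libraries in choroid plexus markers, with sums of 35.1 to 47.1 CPM in KO and 39.2 to 3271 CPM in WT. The part of this difference in the hippocampal peptide values was not tested.

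In the cortex the smallest p belonged to Nmb, Scg2 and Pdyn. Nmb had 1.52, 2.27 and 1.37 CPM in KO against 2.54, 3.81 and 2.32 CPM in WT, with no overlap (log2 -0.76, interval -1.42 to -0.10, unadjusted p = 0.0280). Markers of the olfactory bulb, where Nmb is high, moved the same way: all 8 were lower in KO cortex with a median log2 of -1.11 and none called, and their sums were 160 to 182 CPM in KO against 187 to 234 CPM in WT. Eomes, a marker of bulb projection neurons, had 0.119, 0.512 and 0.105 CPM in KO cortex against 5.32, 2.21 and 2.26 CPM in WT cortex, and the part of bulb tissue in the Nmb values was not tested. Scg2 had 285, 305 and 315 CPM in KO against 418, 308 and 387 CPM in WT (log2 -0.31, interval -0.58 to -0.04), a difference that was -0.02 without WT cortex 1 and 3, and Pdyn had 43.4, 51.7 and 50.6 CPM in KO against 55.0, 59.0 and 58.6 CPM in WT (log2 -0.25, interval -0.48 to -0.03; -0.28 without those libraries). The test that the Nmb effect differs between regions gave an unadjusted p of 0.0109 and did not pass after adjustment.

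In the cortex 18 of 19 peptide precursors had a negative difference, none of which passed the test, with a median log2 of -0.26. Over all genes 51.9% were negative and the median was -0.01. Without WT cortex 1 and 3, the libraries with hypothalamus markers, 5 of 19 precursors and 45.9% of all genes were negative, and the precursor median was 0.10. That fit, chosen after seeing the data, sets the KO libraries against WT cortex library 2 alone. Gal had the largest difference of the precursors, with 0.507, 1.35 and 1.65 CPM in KO against 4.41, 1.03 and 3.51 CPM in WT, and its log2 difference of -1.36 became 0.17 without WT cortex 1 and 3. The part of hypothalamic tissue in these signs was not tested. Over all 31 genes in the mean over regions 23 were negative, with a median of -0.05, against 14 of 31 without WT cortex 1 and 3, and 11 of 31 without the 5 libraries rich in choroid plexus markers. In the cerebellum 16 of 24 were negative, and 10 of 23 without the libraries numbered 1. Over all genes 50.4% were negative in the mean over regions, 47.1% in that mean without WT cortex 1 and 3, and 50.6% in the cerebellum.

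**Figure D5:**
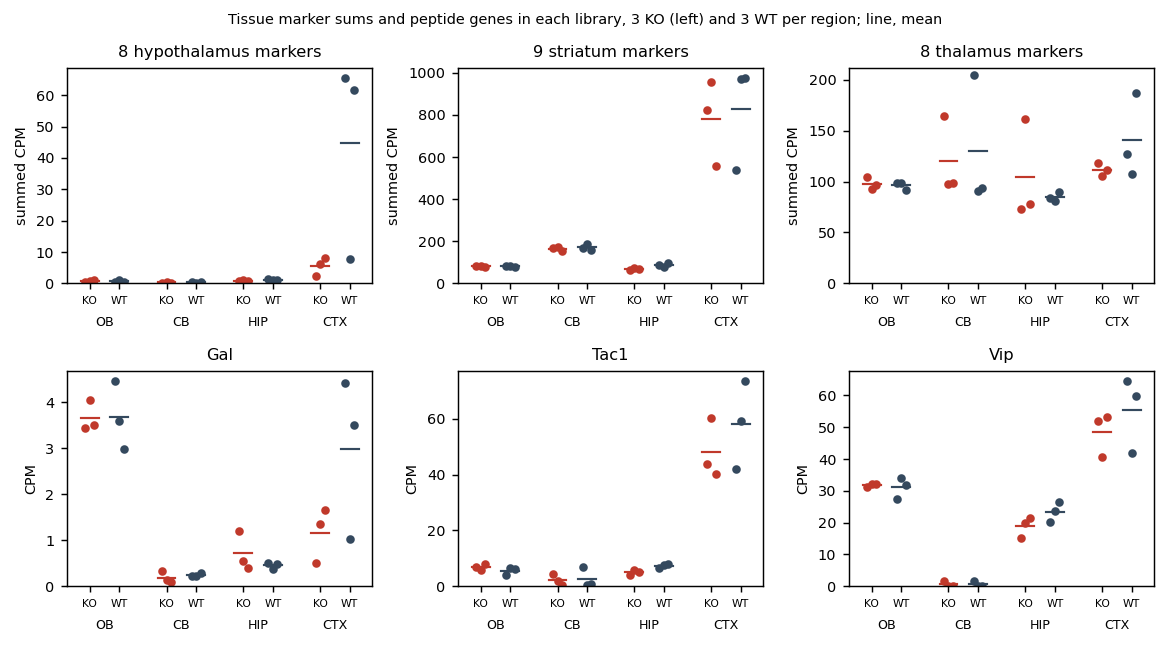
Marker sums (upper row: 8 hypothalamus, 9 striatum and 8 thalamus markers) and peptide genes (lower row: Gal, Tac1 and Vip) as CPM in each library, with KO (red) left of WT (dark) in each region and a line at the mean. WT cortex libraries 1 and 3 stand at 65.4 and 61.6 CPM for hypothalamus markers and are the highest cortex libraries for Gal.

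Other genes of the pathway gave the same count. Of 34 peptide receptors, 26 were tested in the bulb, 24 in the cerebellum, 28 in the hippocampus, 32 in the cortex and 32 in the mean over regions, and 0 were called higher or lower in any of them, with 2 at an unadjusted p under 0.05 in the mean. A list of 18 other processing genes holds convertases, carboxypeptidases and peptidases, and also Aanat, an enzyme of melatonin synthesis, and Atp6ap2, the prorenin receptor, which do not process peptide precursors. Of these 18 genes 0 were called in any KO comparison and 2 had an unadjusted p under 0.05 in the mean, where the median log2 was 0.02. Of 20 genes of the dense-core vesicle machinery 0 were called, with 3 at an unadjusted p under 0.05 in the mean and a median of -0.01. Of 40 other peptide precursors 24 were tested in the mean and 0 were called (5 at an unadjusted p under 0.05). Beside these counts, 14% of all genes had an unadjusted p under 0.05 in the mean over regions. In the cortex 17 of 20 tested precursors of that list were lower in KO, where 51.9% of all genes were negative. The list includes Hcrt, Pmch, Avp and Oxt, which mark the hypothalamus. A list of 18 peptide genes reported to respond to activity or cAMP also had 0 called. All but Bdnf, Nptx2, Inhba and Trh belong to the neuropeptide genes tested above, and Trh is in the list of other precursors. For most of its genes this list therefore repeats values already given and is no separate result. In the mean over regions 3 of 18 were positive, with a median of -0.08, where the 13 immediate-early genes were all positive.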

How the data were processed

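Per library, the authors deposited whole-number read counts for every Ensembl gene. The submitters' processing notes name bcl2fastq 2.17.1.14, STAR 2.5.1b, HTSeq 0.6.1p1 and the mm9 build. Per the labels, RNA was extracted in TRIzol and made into stranded mRNA libraries. The strand setting of the counting is not given in the sources used here, and genes that overlap, antisense ones included, are therefore uncertain. Each table has 37621 features and 5 summary lines, which were left out of library sizes and tests and held 8.22% to 16.8% (no feature), 0.576% to 0.764% (ambiguous) and 10.3% to 13.5% (not unique) of all counts. Symbols were found for 32897 IDs, and 272 of 274 list symbols matched. Replicate pairs differed by 6.61 to 56.1 in chi-square per degree of freedom, so no library repeats another of its group. Libraries of different groups were not compared in this way.

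Counts were tested in R 4.3.3 with edgeR 4.0.16 (filterByExpr, TMM, quasi-likelihood F test, robust), adjusted by Benjamini-Hochberg over all genes tested. Each region was fitted on its 6 libraries, the mean and the interaction on all 24, and region pairs on the 12 WT and, separately, the 12 KO libraries. The SE is the size of the fitted log2 divided by the square root of its F value, not an SE taken from the fit. Intervals are 95% intervals built from that SE with the t distribution, and are approximate. CPM per kb uses exon lengths of GENCODE M21 (GRCm38), matched by ID. Alternatives were DESeq2 1.42.0, limma 3.58.1 (voom, libraries of 1 genotype and number correlated), library totals, no filter, the spread of all 24 libraries, the replicate number as a block and each library left out. Leaving out cortex WT 1 and 3, the cerebellum libraries numbered 1, or the 5 libraries rich in choroid plexus markers was chosen after seeing the data. Without cortex WT 1 and 3 the WT cortex group holds 1 library. The fit was also run on simulated counts with known changes, for the cortex and for the mean over regions. The outcome is not reported here, so it gives no bound on the effects that could be missed.

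Members and lists were chosen with earlier results of these data known. Per-library values are given for the 6 genes with the smallest p in the mean, the 2 with the smallest p in each region and the 3 highest per kb in each WT region; further genes were named after their values were seen. Same-numbered KO and WT libraries deviated together in the bulb (correlations 0.438, 0.799 and 0.338), cerebellum (0.356, 0.691 and 0.323) and hippocampus (0.442, 0.586 and 0.322). In the cortex they did not in every case (0.447, 0.682 and -0.0881). KO 3 correlated more with WT 1 than with WT 3 in the bulb (0.472) and hippocampus (0.364), though not in the cerebellum (-0.00912). The pairing by number is therefore uncertain, and numbers served as pairs only in the fits with the replicate block. The values printed are from the fits without the block unless the block is named. With 3 libraries per group, no outlier test was made.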

Additional observations from a re-analysis of the deposited data

How the results depend on the processing

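In the KO comparisons 0 of the 31 genes were called under all alternatives run (11 in the bulb, 12 in the cerebellum, 11 in the hippocampus, 12 in the cortex, 32 for the mean and 28 for the interaction), the replicate block among them. With the block the interval lay within 1.5-fold for 23 of 30 genes of the bulb, 12 of 24 of the cerebellum, 17 of 31 of the hippocampus, 20 of 31 of the cortex and 22 of 31 in the mean, and left out 0 for 6, 1, 10, 3 and 2 genes in that order. No share over all genes stands beside these last counts, so they are not read as a result about the 31 genes. Of 2322 KO values of single genes, 229 changed sign and none crossed the threshold. Over all genes the KO call counts moved by more: in the mean over regions 462 became 1256 with the replicate block, 770 with DESeq2, 217 without the cortex, 108 with limma-voom and 99 without the 5 libraries rich in choroid plexus markers. For single regions (0 called in bulb, cerebellum and hippocampus, 6 in cortex), DESeq2 called 62, 49, 38 and 102 in that order and the block 57, 3, 15 and 110. Over all genes hippocampus against cortex had 2257 calls in WT, 3396 with the block and 1024 without WT cortex 1 and 3, and bulb against cortex had 7405, or 4165 without those libraries. Between WT regions the count for hippocampus against cortex, 15, ranged from 9 to 16 with 1 library left out and was 9 without WT cortex 3, 10 without WT cortex 1, 4 without WT cortex 1 and 3 (chosen after seeing the data) and 17 with the replicate block; fewer cortex libraries were left in those fits. Counts for the other 5 pairs stayed within 1.5 times. With 1 library left out they ranged from 26 to 27 for cerebellum against cortex, 20 to 24 for cerebellum against hippocampus, 22 to 25 for bulb against cerebellum, 17 to 21 for bulb against cortex and 20 to 24 for bulb against hippocampus. Of 3162 single-gene values between regions, 2997 kept their call, 124 lost it and 40 gained it. One reversed: Sst in bulb against cerebellum was -0.17, ranged from -0.63 to 1.49 with 1 library left out, and was called at 1.49 without cerebellum WT 1 (adjusted p = 5.45e-05). Sampling depth limits genes near the floor of 3 counts per library, which is 0.0689 to 0.152 CPM, and covers counting error only.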
